A study of Homo sapiens with 24 samples.

Results

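The comparison set the RNAs recovered with ATPase-inhibited RUVBL1 against those recovered with RPAP3 from untreated cells, to ask whether inhibited RUVBL1 keeps the mRNAs that RPAP3 recovers. It used 8 of the 24 libraries of an RNA immunoprecipitation study of chaperone factories and all 16695 genes that passed a filter on low counts. The cells were HCT116, a human colorectal carcinoma line, in which CRISPR/Cas9 editing had put GFP on an endogenous protein; whether a line is 1 clone is not given in the sources used here. In the RUVBL1 GFP knock-in line, cells had received 0.5 µM CB-6644 for 16 h, an inhibitor of the RUVBL1/2 ATPase, and RNA was taken from GFP-Trap beads (2 libraries) and from uncoupled agarose beads (2 libraries). In the RPAP3 GFP knock-in line, cells were untreated, and RNA was taken from the same kinds of bead (2 libraries each). Enrichment is the log2 ratio of the level on GFP beads to that on uncoupled beads. The quantity tested was the enrichment with CB-6644 RUVBL1 minus the enrichment with untreated RPAP3, here called the difference. A positive difference means more recovery with inhibited RUVBL1 and a negative one more with RPAP3. Bait, cell line and drug change together in this comparison and cannot be told apart within it.

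RUVBL1 and RUVBL2 are AAA+ ATPases that form a ring. With the scaffold RPAP3 and the adaptor PIH1D1 the ring forms R2TP, which works with HSP90 in assembling RNA polymerases, PIKK kinases, snoRNPs and U5 snRNP, and the ring is also a permanent part of the INO80, SRCAP and TIP60 chromatin complexes. When a chaperone holds a protein that is still on the ribosome, the mRNA being translated comes down with the chaperone. Box C/D snoRNAs guide ribose methylation of RNA, box H/ACA snoRNAs guide pseudouridylation, and small Cajal body RNAs (scaRNAs) do so for spliceosomal RNAs.

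Total counts ran from 9019665 in GFP replicate 2 of CB-6644 cells to 50394245 in uncoupled replicate B of the RPAP3 line. GFP replicate 2 of CB-6644 cells stood apart, at -136.4 on a first principal component (51.6% of the variance) where the other 7 libraries lay between -53.4 and 64.8. Its log2 levels correlated with those of replicate 1 at 0.934 across genes, against 0.976 to 0.986 in the other 3 groups. All 4 replicate pairs differed by more than sampling noise (chi-square per degree of freedom 16 to 93.9), so none was merged. Whether the replicates are separate cultures is not in the labels, and p-values therefore reflect no more than library-to-library spread, possibly technical. Of 12 colon epithelial markers 10 passed the filter, led by the keratins KRT8, KRT18 and KRT19, and 0 differed in enrichment. Their summed level was 3584 to 3954 CPM in the CB-6644 RUVBL1 libraries and 1658 to 2032 CPM in the RPAP3 libraries. Of 16 markers of blood, stromal, liver and neural cells 7 passed, 6 of them also without the GFP libraries of CB-6644 cells. Those that did not pass included PTPRC, CD3E, ALB and HBB. Summed levels were 39.66 CPM in GFP replicate 2 of CB-6644 cells, 7.613 to 9.928 CPM in the other CB-6644 RUVBL1 libraries and 9.486 to 18.53 CPM in the RPAP3 libraries. Uncoupled beads alone differed between the lines, with 1482 genes higher (8.88%) and 1746 lower (10.5%) on those of CB-6644 RUVBL1 cells. How far this entered the differences was not tested, and the bead levels are given with the genes.

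Of the RNAs called with RPAP3, most were also called with inhibited RUVBL1 in the fit used here, a share that changed with the fit. The mRNAs of the large RNA polymerase subunits were recovered much less with inhibited RUVBL1. Inhibited RUVBL1 also recovered a large set of snoRNAs that were not called with RPAP3. RPAP3 had 56 genes higher on GFP beads (0.335% of genes tested), and CB-6644 RUVBL1 had 983 higher (5.89%) and 550 lower (3.29%). With upper-quartile scaling that split was 945 to 846, and with total-count scaling 1824 to 325. The difference was called for 50 genes in the direction of CB-6644 RUVBL1 (0.299%) and 8 in the direction of RPAP3 (0.0479%), in edgeR's quasi-likelihood test at an adjusted p under 0.05. The 50 were 30 box C/D snoRNAs, 6 scaRNAs, 13 mRNAs and the snoRNA host transcript SNHG1. All 50 were also higher on GFP than on uncoupled beads of CB-6644 cells. Those libraries enter the difference, so this is largely built in and adds no support. The 8 were 7 mRNAs and RPPH1, the RNA component of nuclear RNase P. In such lysates fewer cells with an RNA and less RNA per cell cannot be told apart. The counts depended on which library was left out. Higher calls numbered 1015 without GFP replicate 1 of CB-6644 cells, 47 without its replicate 2, 23 and 27 without the CB-6644 uncoupled libraries, 21 and 30 without the RPAP3 GFP libraries and 47 and 28 without the RPAP3 uncoupled ones. Lower calls numbered 1059, 10, 5, 7, 6, 7, 5 and 5 in the same order.

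**Figure D1:**
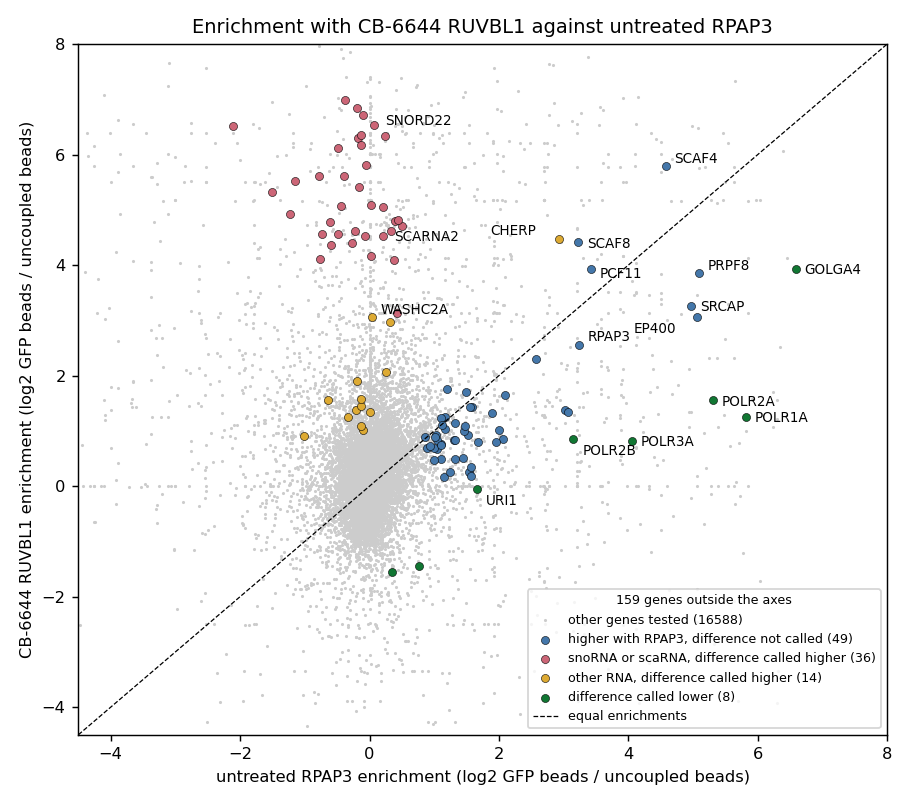
Log2 enrichment with CB-6644 RUVBL1 (vertical) against log2 enrichment with untreated RPAP3 (horizontal), 1 point for each of 16695 genes (159 lie outside the axes), with colours for the calls and a dashed line of equal enrichments. The polymerase mRNAs lie far below the line, SCAF4, SCAF8 and CHERP above it, and the 36 called snoRNAs and scaRNAs stand between -2.11 and 0.49 with RPAP3 and between 3.14 and 6.99 with inhibited RUVBL1.

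Of the 56 RPAP3 mRNAs, 41 were also called with CB-6644 RUVBL1, which is 73.2% of the RPAP3 list and 4.17% of the RUVBL1 list. Over all genes tested, 5.89% were called with CB-6644 RUVBL1. The share depended on the fit, at 70 of 97 with DESeq2, 21 of 38 in the 8 libraries alone and 29 of 133 with voom. The counts given below with a library left out are not shares of the 56, since the RPAP3 count changed too. The enrichment with inhibited RUVBL1 was above 0 for 55 of the 56, with a median of 0.96 against 1.53 with RPAP3, where all genes tested had medians of 0.06 and -0.03. The difference was below 0 for 47 of the 56. The list was chosen on the RPAP3 libraries, which also enter the difference, so a shift of this list below 0 is built in and supports nothing. The difference was called lower for 6 of them, POLR1A, POLR2A, POLR3A, POLR2B, GOLGA4 and URI1, and higher for 1, CHERP. Among the 18 with an RPAP3 enrichment of at least 2, 15 were called with inhibited RUVBL1, and POLR1A, POLR3A and TNS2 were not. The other RPAP3 mRNAs not called with inhibited RUVBL1 were PTPN13, URI1, CHD2, TTLL5, SLF1, CHD1, ATAD2B, FLII, NEK1, AGO4, IFT122 and KTN1, at -0.05 to 1.01. The 41 became 34 and 39 without GFP replicates 2 and 1 of CB-6644 cells, 18 and 14 without uncoupled replicates 1 and 2, 24 and 21 without the RPAP3 GFP libraries A and B and 17 and 15 without the RPAP3 uncoupled ones. The RPAP3 count of 56 itself became 33, 34, 23 and 24 when GFP library A, GFP library B, uncoupled library A and uncoupled library B of the RPAP3 line were left out in turn.

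The mRNAs of the large RNA polymerase subunits made up 4 of the 8 genes lower with inhibited RUVBL1 and included the 3 largest deficits. POLR1A encodes the largest subunit of RNA polymerase I (chromosome 2, 86020216 to 86105886, GRCh38.p14, whole gene span in the RefSeq table, as for all positions given here). Its level was 1500.0 and 2724 CPM on RPAP3 GFP beads and 36.3 and 38.6 CPM on uncoupled beads, and 159 and 139.6 CPM on GFP beads of CB-6644 RUVBL1 cells against 64.7 and 60.3 CPM on uncoupled beads. Both RPAP3 GFP libraries lay far above all others, and the RUVBL1 GFP libraries lay above their own beads by much less. The enrichment was 5.82 ± 0.50 with RPAP3 (56.4-fold, adjusted p = 3.25e-06) and 1.26 ± 0.42 with inhibited RUVBL1 (adjusted p = 0.0696). The difference was -4.56 ± 0.61 (adjusted p = 0.00118), so that the RUVBL1 enrichment was 4.23% of the RPAP3 enrichment as a ratio. It was called in all 16 alternative settings run, with an adjusted p of at most 0.0469.

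POLR2A, the largest subunit of RNA polymerase II that carries the C-terminal domain (chromosome 17, 7484366 to 7514616), stood at 5163 and 7708 CPM on RPAP3 GFP beads and 153 and 172 CPM on uncoupled beads. With CB-6644 RUVBL1 it stood at 1452 and 1000.2 CPM against 469.9 and 368 CPM. The groups did not overlap, and the uncoupled beads of CB-6644 cells also held more of it than those of the RPAP3 line (1.36 ± 0.41, adjusted p = 0.0232). Its enrichment was 5.31 ± 0.48 with RPAP3 and 1.55 ± 0.41 with inhibited RUVBL1 (adjusted p = 0.0251), a difference of -3.76 ± 0.59 (adjusted p = 0.00211). POLR3A, the largest subunit of RNA polymerase III (chromosome 10, 77975149 to 78029515), was at 315 and 463 CPM on RPAP3 GFP beads, 24.4 and 22.4 CPM on uncoupled beads, and 61.9 and 54.6 against 32.5 and 33.6 CPM with inhibited RUVBL1. Its enrichments of 4.05 ± 0.41 and 0.82 ± 0.37 differed by -3.23 ± 0.53 (adjusted p = 0.00602). Without GFP replicate 2 of CB-6644 cells neither difference was called, POLR2A at -3.55 (adjusted p = 0.142) and POLR3A at -3.18 (adjusted p = 0.131), and without RPAP3 uncoupled replicate B POLR3A was at -3.17 (adjusted p = 0.0614).

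POLR2B, the second-largest subunit of RNA polymerase II (chromosome 4, 56978896 to 57031158), followed the same order. It stood at 633 and 595 CPM on RPAP3 GFP beads and 73.7 and 64.9 CPM on uncoupled beads, against 133 and 116 and 72.7 and 65.6 CPM in the RUVBL1 libraries. The RPAP3 GFP pair alone stood high. Its enrichments of 3.15 ± 0.28 and 0.85 ± 0.26 (adjusted p = 0.0412) differed by -2.30 ± 0.38 (adjusted p = 0.00118), a call kept in all 16 alternatives. The enrichments of POLR2A and POLR2B with inhibited RUVBL1 were themselves weak calls. Each was lost without any 1 of the 4 CB-6644 libraries (adjusted p = 0.0991 to 0.204 for POLR2A and 0.0768 to 0.262 for POLR2B), and POLR2B also without any 1 of the RPAP3 libraries (adjusted p = 0.0513 to 0.0617). The list of 6 largest and second-largest polymerase subunits thus had 4 members lower (0.0479% over all genes tested). Its median difference was -2.77 against 0.07 for all genes tested. Its median enrichments were 3.60 with RPAP3 and 0.84 with inhibited RUVBL1. Of the 29 other polymerase subunits and assembly factors 0 passed in the difference (median -0.25), and 0 passed with RPAP3.

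GOLGA4, a golgin that tethers vesicles at the trans-Golgi (chromosome 3, 37243271 to 37366879), was the RNA with the highest RPAP3 enrichment among the 56. It reached 8382 and 10986 CPM on RPAP3 GFP beads over 98.2 and 104 CPM, and 3157 and 1305 CPM on RUVBL1 GFP beads over 156 and 136 CPM. It was high in both baits' GFP libraries and higher in those of RPAP3. Its enrichment was 6.59 ± 0.39 with RPAP3 and 3.94 ± 0.34 with inhibited RUVBL1 (adjusted p = 3.7e-09), so it was recovered with both while differing by -2.65 ± 0.44 (adjusted p = 0.00128). The difference missed the threshold when the 8 libraries were fitted alone (adjusted p = 0.181). Of the 10 other golgins 0 passed in the difference.

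URI1, the prefoldin-like subunit that binds R2TP (chromosome 19, 29923657 to 30016612), was at 943 and 504 CPM on RPAP3 GFP beads, 234 and 225 CPM on uncoupled beads, and 199.5 and 132 against 166 and 177 CPM in the RUVBL1 line. It was the 1 member of 10 of the R2TP and prefoldin-like list that passed, with enrichments of 1.66 ± 0.26 and -0.05 ± 0.25 and a difference of -1.70 ± 0.36 (adjusted p = 0.0187). That call held in 9 of 16 alternatives and was lost, with adjusted p of 0.0735 to 0.355, without GFP replicate 2 or either uncoupled library of CB-6644 cells, RPAP3 GFP replicate A or either RPAP3 uncoupled library. The URI1 enrichment with RPAP3 was 1.14 without GFP replicate A (adjusted p = 0.0859). RPPH1 (chromosome 14, 20343071 to 20343411) differed by -1.91 ± 0.41 (adjusted p = 0.0257), but with 6196 and 5086 CPM on RUVBL1 GFP beads it was low there only against 16759 and 16491 CPM on the uncoupled beads of the same cells. The RPAP3 libraries held 6605 and 5779 CPM on GFP beads and 4386 and 5322 CPM on uncoupled beads, and the uncoupled beads differed by 1.78 ± 0.30 (adjusted p = 0.000105). SERPINA1, a secreted protease inhibitor at a mean of 2.7 CPM, which was named after its values were seen, differed by -2.20 ± 0.49 (adjusted p = 0.0344), with uncoupled beads at 5.87 and 6.07 CPM in CB-6644 cells and 1.11 and 0.83 CPM in the RPAP3 line. The RPPH1 and SERPINA1 calls held in 8 and 6 of 16 alternatives. They were lost without any 1 of the CB-6644 uncoupled or RPAP3 libraries, at adjusted p of 0.0637 to 0.183 for RPPH1 and 0.0642 to 0.312 for SERPINA1.

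**Figure D2:**
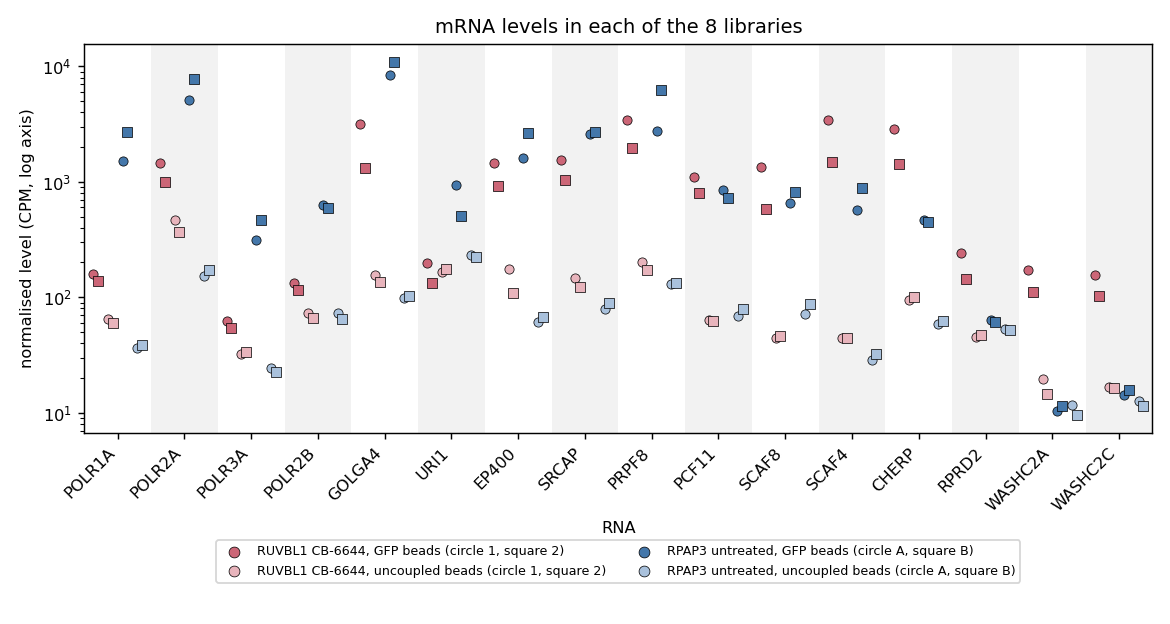
Levels of 16 mRNAs in each of the 8 libraries (CPM, log axis), grouped by mRNA, with circles and squares for the replicates of a group. In the columns from POLR1A to POLR2B the RPAP3 GFP libraries stand far above the rest, from EP400 to CHERP the GFP libraries of both baits stand above their uncoupled beads, and in the RPRD2, WASHC2A and WASHC2C columns the RUVBL1 GFP libraries stand highest.

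Several of the highest RPAP3 mRNAs were recovered with inhibited RUVBL1 at clear levels, and their differences did not pass the test as fitted, which for EP400 and SRCAP depended on the setting. PRPF8, the core splicing factor of the U5 particle (chromosome 17, 1650629 to 1684867), stood at 2777 and 6194 CPM on RPAP3 GFP beads over 130.4 and 133 CPM, and at 3443 and 1966 CPM on RUVBL1 GFP beads over 201 and 173 CPM. The GFP levels of the baits overlapped. Its enrichments were 5.09 ± 0.41 and 3.85 ± 0.38 (adjusted p = 1.34e-07), and the difference was -1.24 ± 0.48 (adjusted p = 0.363). EP400, the SNF2-type ATPase found in TIP60 (chromosome 12, 131949942 to 132080460), had 1621 and 2648 CPM over 60.5 and 67 CPM with RPAP3 and 1468 and 914 CPM over 176 and 109 CPM with inhibited RUVBL1. Its enrichments of 5.06 ± 0.38 and 3.06 ± 0.35 differed by -2.00 ± 0.46 (adjusted p = 0.054). SRCAP, the ATPase of the complex of that name (chromosome 16, 30699171 to 30741409), had 2607 and 2676 CPM over 79.6 and 89.4 CPM and 1551 and 1032 CPM over 148 and 123 CPM, with enrichments of 4.97 ± 0.34 and 3.26 ± 0.32 and a difference of -1.71 ± 0.41 (adjusted p = 0.0651). For EP400 and SRCAP the RPAP3 GFP libraries lay above the RUVBL1 GFP libraries without overlap, and both lay near the threshold. Without GFP replicate 1 of CB-6644 cells the differences of PRPF8 (-1.70, adjusted p = 0.0382), EP400 (-2.38, adjusted p = 0.00488) and SRCAP (-2.03, adjusted p = 0.0029) were called. That of EP400 was also called without CB-6644 uncoupled replicate 2 (adjusted p = 0.0358) and without RPAP3 GFP replicate A (adjusted p = 0.0379). Over all alternatives the EP400 difference was called in 8 of 16, among them DESeq2, upper-quartile scaling, no filter on low counts and the replicate block, with adjusted p of 3.79e-05 to 0.499. That of SRCAP was called in 6 of 16, among them DESeq2, voom, upper-quartile scaling, no filter and the replicate block (adjusted p of 0.000635 to 0.423), and that of PRPF8 in 1 of 16. A p that misses the threshold does not show that the recoveries were equal.

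The list of INO80, SRCAP and TIP60 subunits had 7 of 30 members higher with inhibited RUVBL1 (5.89% of all genes tested), 4 higher with RPAP3 (0.335%) and 0 called in the difference (0.299% higher and 0.0479% lower over all genes), with a median difference of -0.12. INO80, the ATPase of its complex, was called with both at 1.95 ± 0.22 with RPAP3 and 0.80 ± 0.22 with inhibited RUVBL1, and its difference was -1.14 ± 0.31 (adjusted p = 0.133; 0.00309 without GFP replicate 1 of CB-6644 cells, and called in 4 of 16 alternatives). BRD8, a bromodomain subunit of TIP60, stood at 1.58 ± 0.22 and 1.43 ± 0.22. Of 4 Argonautes, the proteins that carry small RNAs, RPAP3 had 3 higher (0.335% over all genes) and inhibited RUVBL1 had 2 (5.89%), with 0 called in the difference. The 2 were AGO1 (1.30 ± 0.27 with RPAP3 and 0.83 ± 0.27 with inhibited RUVBL1) and AGO3 (1.90 ± 0.36 and 1.31 ± 0.36). The Argonaute calls were lost without single libraries, those with inhibited RUVBL1 without any 1 of the 4 CB-6644 libraries (adjusted p up to 0.282 for AGO1 and 0.243 for AGO3) and those with RPAP3 without RPAP3 GFP replicate A or either uncoupled library (up to 1 and 0.499). The INO80 call with inhibited RUVBL1 was lost without GFP replicate 1 (adjusted p = 0.0829) or either uncoupled library of CB-6644 cells (adjusted p = 0.0984 and 0.197). TEP1, a telomerase-associated protein, stood at 2.57 ± 0.48 with RPAP3 and 2.30 ± 0.48 with inhibited RUVBL1. The difference for TEP1 (-0.27 ± 0.65) lay within its error. The TEP1 call with RPAP3 was lost without any 1 of the 4 RPAP3 libraries (adjusted p = 0.0643 to 0.603) or either uncoupled library of CB-6644 cells (0.062 and 0.0625), and that with inhibited RUVBL1 without GFP replicate 2 or either uncoupled library (0.097 to 0.163). PIKK kinases and their TTT co-chaperone had 2 of 9 members higher with inhibited RUVBL1 (5.89% over all genes), both of them calls that single libraries ended, the kinase SMG1 at 1.03 ± 0.24 and TELO2 at 1.74 ± 0.38, 0 with RPAP3 and 0 in the difference. TELO2 levels were 25.1 and 79.9 CPM on the RUVBL1 GFP beads over 17.8 and 13.5 CPM, so replicate 1 lay near the uncoupled beads. Without replicate 2 the TELO2 enrichment was 0.66 (adjusted p = 0.242), without either uncoupled library it was not called (adjusted p = 0.0606 and 0.136), and without replicate 1 its difference was called (2.37, adjusted p = 3.14e-05). The SMG1 call was lost without GFP replicate 2 (adjusted p = 0.0665) and without uncoupled replicate 2 (adjusted p = 0.183).

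Proteins with a domain that binds the C-terminal domain of RNA polymerase II had 2 calls in the difference, opposite to the polymerase subunits. Of the 8 listed, 6 were higher with inhibited RUVBL1 (5.89% over all genes), 4 were higher with RPAP3 (0.335%) and 2, CHERP and RPRD2, were called higher in the difference (0.299%), with a list median of 0.84. CHERP, a splicing-linked protein (chromosome 19, 16517894 to 16542437), stood at 2883 and 1437 CPM on RUVBL1 GFP beads over 94.5 and 99.8 CPM, and at 469 and 452 CPM on RPAP3 GFP beads over 59.1 and 61.7 CPM. Both baits' GFP libraries were high, and those of RUVBL1 were higher without overlap. Its enrichments of 4.47 ± 0.29 and 2.93 ± 0.27 differed by 1.54 ± 0.36 (adjusted p = 0.0442), a call that held in 9 of 16 alternatives and was lost without any 1 of the CB-6644 uncoupled or RPAP3 libraries (adjusted p = 0.114 to 0.278). RPRD2, a scaffold that binds the C-terminal domain (chromosome 1, 150364147 to 150476566), was at 243 and 145 CPM over 45.5 and 47.1 CPM with inhibited RUVBL1 and at 63.7 and 61.5 CPM over 53.4 and 51.7 CPM with RPAP3. It was enriched with inhibited RUVBL1 (2.07 ± 0.22, adjusted p = 1.37e-07), its RPAP3 enrichment was 0.25 ± 0.21, and the difference was 1.81 ± 0.30 (adjusted p = 0.00118), lost when the 8 libraries were fitted alone (adjusted p = 0.146).

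SCAF4, a protein that limits early termination by RNA polymerase II (chromosome 21, 31671000 to 31732118), had the highest enrichment with inhibited RUVBL1 among the RPAP3 mRNAs. It stood at 3434 and 1476 CPM over 44.4 and 44.3 CPM with inhibited RUVBL1 and at 567 and 879 CPM over 28.6 and 32 CPM with RPAP3. Its enrichments of 5.79 ± 0.36 and 4.57 ± 0.34 differed by 1.22 ± 0.42 (adjusted p = 0.307). Its relative SCAF8 (chromosome 6, 154733378 to 154834244) had 1346 and 579 CPM over 43.9 and 46.5 CPM and 661 and 816 CPM over 71.1 and 86.7 CPM, with enrichments of 4.41 ± 0.30 and 3.23 ± 0.28 and a difference of 1.19 ± 0.37 (adjusted p = 0.229). In both, RUVBL1 GFP replicate 1 stood well above replicate 2, and without replicate 2 the differences were called (SCAF4 1.67, adjusted p = 0.0157; SCAF8 1.63, adjusted p = 0.00245). PCF11, a cleavage and termination factor, was recovered with both at 1092 and 807 CPM over 63.1 and 62.3 CPM and 847 and 728 CPM over 68.2 and 78.6 CPM, with enrichments of 3.92 ± 0.32 and 3.42 ± 0.31 and a difference of 0.50 ± 0.40 (adjusted p = 0.668).

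The difference can be split into a bait step, untreated RUVBL1 minus untreated RPAP3, and a drug step, CB-6644 minus untreated RUVBL1, which add up to it and share its libraries. The untreated RUVBL1 libraries enter both steps, with opposite signs. An error in them moves the steps in opposite directions, so steps of opposite sign are partly built in. The bait step had 58 genes higher (0.347%) and 10 lower (0.0599%), and the drug step 72 higher (0.431%) and 40 lower (0.24%). Neither step was refitted in the alternative settings or with a library left out. For the polymerase mRNAs the drug step was the larger part of the deficit by value, but for POLR1A the steps overlapped within their errors. POLR2B had 0.44 ± 0.37 in the bait step and -2.74 ± 0.38 (adjusted p = 8.59e-05) in the drug step, POLR2A had -0.82 ± 0.57 and -2.94 ± 0.58 (adjusted p = 0.0194), and POLR1A had -1.90 ± 0.59 and -2.66 ± 0.59 (adjusted p = 0.0499). POLR3A had -0.96 ± 0.51 and a drug step of -2.27 ± 0.52 that did not pass (adjusted p = 0.0595). GOLGA4 showed the reverse split, with -2.31 ± 0.44 in the bait step (adjusted p = 0.00981) and -0.35 ± 0.43 in the drug step (adjusted p = 0.72). In the CHERP, SCAF4 and SCAF8 mRNAs the steps ran in opposite directions, which the shared untreated RUVBL1 libraries favour. They were lower with untreated RUVBL1 than with RPAP3 (-2.06 ± 0.36, -1.97 ± 0.43 and -1.68 ± 0.37; adjusted p = 0.00503, 0.0342 and 0.0342) and rose with the drug (3.60 ± 0.37, 3.18 ± 0.43 and 2.86 ± 0.37; adjusted p = 7.38e-07, 0.000124 and 4.39e-05). PRPF8 and EP400 had positive bait steps that did not pass (1.37 ± 0.49 and 1.03 ± 0.46) and fell with the drug (-2.61 ± 0.49 and -3.03 ± 0.47). Over the 56 RPAP3 mRNAs, 8 were lower and 1 higher in the bait step, and 6 were lower and 7 higher in the drug step. The 56 were chosen on the RPAP3 libraries, which enter the bait step but not the drug step. An excess of lower calls in the bait step is therefore built in, and the steps cannot be compared on this list.

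**Figure D3:**
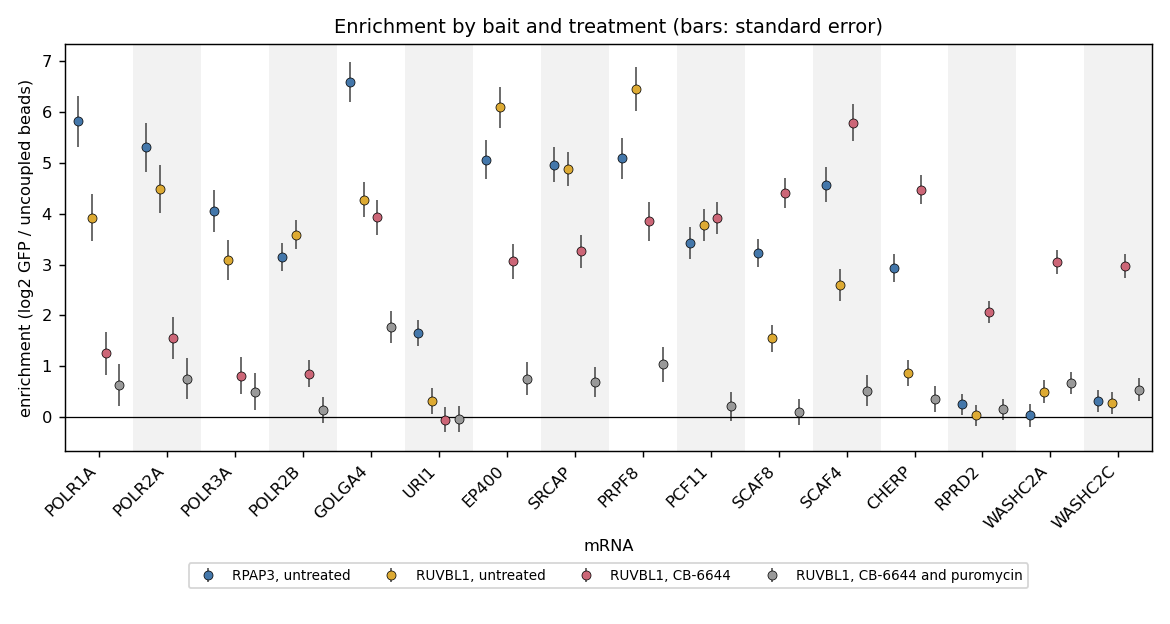
Log2 enrichment of 16 mRNAs with untreated RPAP3, untreated RUVBL1, CB-6644 RUVBL1 and RUVBL1 after CB-6644 and puromycin, with standard errors of the fit as bars. The polymerase mRNAs drop between untreated and CB-6644 RUVBL1, CHERP goes from 0.87 to 4.47, and with puromycin the points of these mRNAs lie between -0.04 and 1.77.

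The same mRNAs were measured in 4 libraries of CB-6644 cells that also received puromycin (30 min at 100 µg/mL), a drug that frees growing chains from the ribosome, and in 4 RPAP3 libraries with puromycin alone. These libraries were outside the comparison. After CB-6644 and puromycin 163 genes were higher on RUVBL1 GFP beads (0.976%), and after puromycin 16 were higher on RPAP3 GFP beads (0.0958%). Of the 41 mRNAs recovered with both baits, 11 were called with RUVBL1 after both drugs and 3 with RPAP3 after puromycin, with medians of 0.62 and 0.34. SCAF4 stood at 0.52 ± 0.30 with RUVBL1 after both drugs, CHERP at 0.36 ± 0.25, PRPF8 at 1.04 ± 0.35 and EP400 at 0.76 ± 0.33, none of them called. GOLGA4 was the exception among the highest mRNAs, called at 1.77 ± 0.31 with RUVBL1 (adjusted p = 0.0017) and at 1.85 ± 0.32 with RPAP3 (adjusted p = 0.00804). The change that puromycin made in CB-6644 cells was not tested.

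Inhibited RUVBL1 also recovered mRNAs that were not called with RPAP3. WASHC2A and WASHC2C encode the FAM21 subunits of the WASH complex, which drives actin branching on endosomes, and are near-identical copies on chromosome 10, so how reads were shared between them is uncertain. WASHC2A (50067954 to 50133509) stood at 174 and 109.9 CPM on RUVBL1 GFP beads over 19.7 and 14.4 CPM, and at 10.3 and 11.4 CPM over 11.7 and 9.52 CPM with RPAP3. Only the RUVBL1 GFP libraries were high. Its enrichment of 3.06 ± 0.23 and the RPAP3 value of 0.03 ± 0.22 differed by 3.02 ± 0.32 (adjusted p = 9.68e-07). WASHC2C differed by 2.65 ± 0.32 (adjusted p = 6.71e-06), and both calls held in all 16 alternatives. The other 4 members of the WASH list were not called in any of the 3 tests. For WASHC2A the drug step was 2.56 ± 0.32 (adjusted p = 1.45e-05) and the bait step 0.47 ± 0.32, and the enrichment after both drugs was 0.67 ± 0.22.

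A further 9 mRNAs, named after their values were seen, were higher with inhibited RUVBL1 by smaller amounts. They were the kinase ABL1 (1.11 ± 0.26), the adhesion receptors ADGRL1 (1.23 ± 0.28) and ADGRB2 (1.58 ± 0.34), CEP170B (1.34 ± 0.28), PCNX3 (1.58 ± 0.34), FAM83H (1.58 ± 0.33), the intermediate filament protein nestin, NES (1.91 ± 0.43), the kinesin KIF26A (2.10 ± 0.46) and the collagen COL13A1 (2.20 ± 0.50), with adjusted p of 0.0166 to 0.0445. All 9 had RPAP3 values between -1.01 and 0.01, and in all 9 the level was higher in GFP replicate 2 than in replicate 1 of CB-6644 cells, for COL13A1 40 against 11.5 CPM. Their calls held in 3 to 9 of 16 alternatives. All 9 were lost without GFP replicate 2 of CB-6644 cells, without either CB-6644 uncoupled library, without RPAP3 GFP replicate A and without RPAP3 uncoupled replicate A, at adjusted p of 0.0608 for NES to 0.719 for COL13A1. The loss of RPAP3 GFP replicate B or uncoupled replicate B also ended most of these calls. Of the 13 mRNAs higher in the difference, 0 were called on RUVBL1 GFP beads after both drugs (0.976% over all genes tested, median 0.54).

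Small nucleolar and Cajal body RNAs made up 36 of the 50 higher calls. SNORD15B, a box C/D snoRNA within the span of RPS3 (chromosome 11, 75404421 to 75404566) with a close copy in SNORD15A, stood at 994 and 1673 CPM on RUVBL1 GFP beads of CB-6644 cells over 24.3 and 23.5 CPM, and at 2.48 and 4.48 CPM on RPAP3 GFP beads over 1.78 and 5.31 CPM. Both RUVBL1 GFP libraries lay far above the other 6. The enrichment was 5.80 ± 0.60 with inhibited RUVBL1 and -0.06 ± 0.55 with RPAP3, a difference of 5.86 ± 0.78 (adjusted p = 0.0021), although the uncoupled beads also differed by 2.72 ± 0.55 (adjusted p = 0.00303). SNORD22, 1 of 5 called snoRNAs within SNHG1 (chromosome 11, 62852910 to 62853035), stood at 143 and 599 CPM over 3.99 and 4.01 CPM and at 1.8 and 1.72 CPM over 1.78 and 1.6 CPM. Its difference was 6.46 ± 0.83 (adjusted p = 0.0021), and GFP replicate 2 stood well above replicate 1. SNORD17, within SNX5, stood at 293 and 1107 CPM over 8.9 and 8.4 CPM and 12.1 and 10.2 CPM over 8.25 and 10.6 CPM, with a difference of 6.10 ± 0.79 (adjusted p = 0.00211, and 0.097 with the replicate number as a block).

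Further snoRNAs of the highest differences were SNORD58A within RPL17 (6.31 ± 0.72) and SNORD104 within SNHG25 (5.51 ± 0.75). The calls of SNORD58A, SNORD104, SNORD15B and SNORD22 held in all 16 alternatives. SNORD79 within GAS5 (8.63 ± 1.56), SNORD26, SNORD29 and SNORD27 within SNHG1 (7.05 ± 1.23, 6.82 ± 1.13 and 6.48 ± 1.08), SNORD68 within RPL13 (6.61 ± 1.28) and SNORD55 (6.02 ± 1.05) were called in 9 to 12 of 16. Each of these 6 was lost without CB-6644 uncoupled replicate 1 and without RPAP3 GFP replicate A, all but SNORD29 and SNORD27 without CB-6644 uncoupled replicate 2, all but SNORD29 without RPAP3 uncoupled replicate B, all but SNORD68 without RPAP3 GFP replicate B, and SNORD55 without RPAP3 uncoupled replicate A. Their highest adjusted p in any alternative was 0.499. SNORD79 rested on 6 and 9 counts on RPAP3 GFP beads, against 235 and 726 on RUVBL1 GFP beads. SCARNA2, a scaRNA outside any host gene (chromosome 1, 109100193 to 109100612), stood at 227 and 349 CPM over 14.4 and 10.5 CPM and 11.1 and 11.9 CPM over 7.2 and 12.6 CPM, a difference of 4.32 ± 0.39 (adjusted p = 3.14e-07). SCARNA5 within ATG16L1 differed by 6.67 ± 0.69 (adjusted p = 9.68e-07), with 28.8 and 26.9 CPM over 0.826 and 0.388 CPM against 2.03 and 1.35 CPM over 1.9 and 5.56 CPM. Neither scaRNA lost its call in any alternative.

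**Figure D4:**
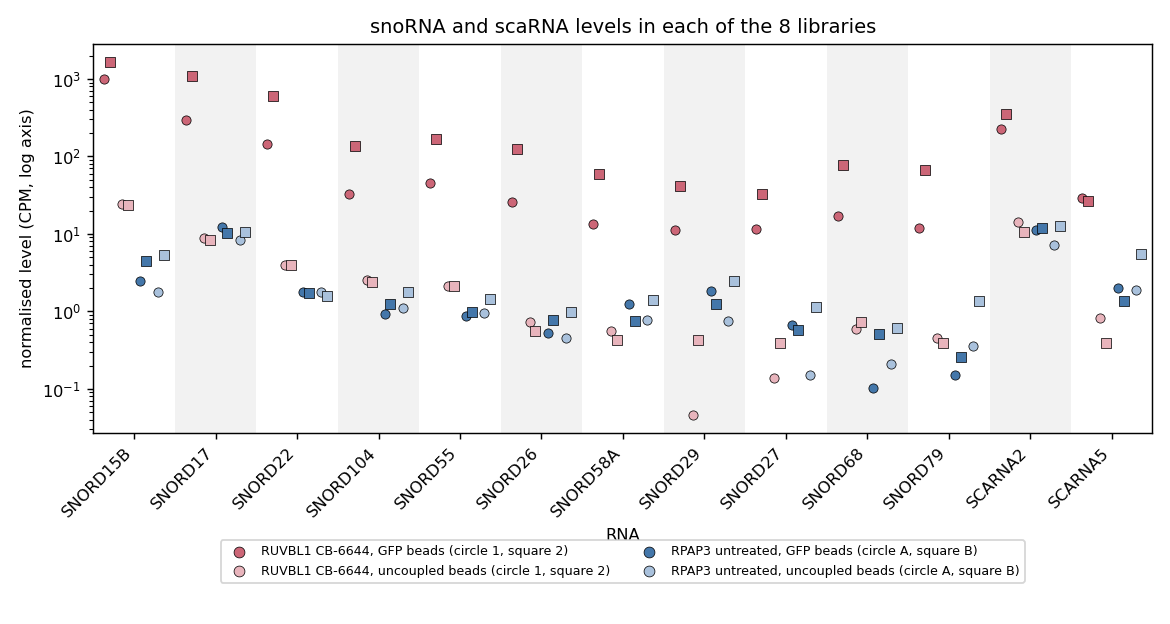
Levels of 11 snoRNAs and 2 scaRNAs in each of the 8 libraries (CPM, log axis), with circles and squares for the replicates of a group. Both GFP libraries of CB-6644 RUVBL1 cells stand above the other 6 in every column, with replicate 2 the higher of the pair except for SCARNA5.

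The classes differed in which libraries held them. Of 141 box C/D snoRNAs tested, 100 passed the filter on libraries other than the GFP beads of CB-6644 cells. Of these, 30 were called higher in the difference (0.299% over all genes tested) and 74 on RUVBL1 GFP beads (5.89%). Summed levels are given over all RNAs tested in a class, including those that passed the filter only through the GFP libraries of CB-6644 cells. For the 141 box C/D snoRNAs the sum was 2729 and 7194 CPM on RUVBL1 GFP beads over 138.9 and 131.5 CPM on uncoupled beads. With RPAP3 it was 130.5 and 133.3 CPM over 86.16 and 146.2 CPM. Of 20 scaRNAs 18 passed in that way, 6 were called in the difference and 10 on RUVBL1 GFP beads. The sum over all 20 was 1088 and 1256 CPM over 90.26 and 68.72 CPM, and 59.47 and 57.5 CPM over 37.34 and 68.91 CPM with RPAP3. Both CB-6644 GFP libraries were high for these classes. Of 86 box H/ACA snoRNAs 78 passed, 0 were called in the difference and 1 on RUVBL1 GFP beads, a smaller share than the 5.89% over all genes. The sum over all 86 was 946.8 CPM in GFP replicate 2 but 59.22 CPM in replicate 1, below the uncoupled beads at 123.4 and 98.14 CPM. Only replicate 2 was high. The median enrichment of 2.26 for the 78 averages over this unequal pair. Over the RNAs that passed, the median difference was 4.56 for box C/D, 2.19 for H/ACA and 2.68 for scaRNAs, against 0.07 for all genes tested. RPAP3 had 0 of the 3 classes called (0.335% higher over all genes tested). The snoRNA and scaRNA calls in the difference, 36, numbered 94 without GFP replicate 1 and 36 without GFP replicate 2 of CB-6644 cells, 19 and 22 without the CB-6644 uncoupled libraries, 17 and 24 without the RPAP3 GFP libraries and 41 and 22 without the RPAP3 uncoupled ones.

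**Figure D5:**
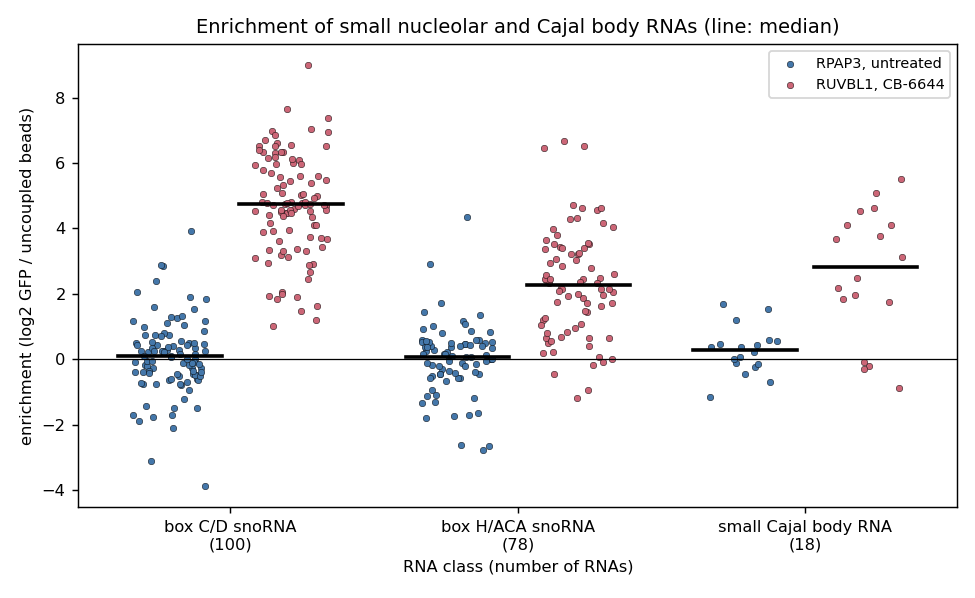
Log2 enrichment with untreated RPAP3 and CB-6644 RUVBL1 for 100 box C/D snoRNAs, 78 box H/ACA snoRNAs and 18 scaRNAs, 1 point per RNA, with medians as lines. With RPAP3 the medians lie at 0.08, 0.08 and 0.29, and with CB-6644 RUVBL1 at 4.74, 2.26 and 2.81.

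Of the host genes tested, SNHG1 was called in the difference. The 35 called RNAs that lie within another gene had 26 hosts, 25 of them tested. Their median difference was -0.37. Of them, 1 was called higher (0.299% over all genes tested), at 1.71 ± 0.28 (adjusted p = 0.00128), and 0 were called lower (0.0479%). The level of SNHG1 was 261 and 175 CPM over 75.4 and 72 CPM with inhibited RUVBL1 and 111 and 87.9 CPM over 103 and 116 CPM with RPAP3, and it was named after its values were seen. The host RPL17, which holds SNORD58A and is also named after its values were seen, had a difference of 1.76 ± 0.62 that did not pass (adjusted p = 0.336) and an enrichment with inhibited RUVBL1 of 1.81 that did (adjusted p = 0.0178). With inhibited RUVBL1 2 hosts were higher and 3 lower (5.89% and 3.29% over all genes tested). Counts this small say little about the hosts as a set. Reads of a snoRNA and of the host transcript around it may be counted to either, since the counting of overlapping genes is not given in the sources used here. Of the 36 snoRNAs and scaRNAs, 34 were also called on RUVBL1 GFP beads after CB-6644 and puromycin (0.976% over all genes tested), with a median enrichment of 4.32 (2.05 to 7.85). With RPAP3 after puromycin 0 were called (0.0958%, median -0.34). After both drugs 0 of the 13 mRNAs higher in the difference and 11 of the 41 mRNAs recovered with both baits were called. With CB-6644 alone the 13 had a median of 1.45 and the 36 one of 5.06, so these counts cannot be compared. Over the 36 the bait step had a median of 1.22 with 0 called and the drug step 4.07 with 21 called higher. The 36 were chosen on libraries that also enter these steps. Positive values there are therefore partly built in and support nothing.

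Other gene groups had members called with inhibited RUVBL1 against its own beads and almost none in the difference. Of 84 cytosolic ribosomal protein mRNAs 33 were lower on RUVBL1 GFP beads and 1 higher (3.29% and 5.89% over all genes), with a median of -0.75, against 0.07 and 0 called with RPAP3; in the difference the median was -0.81 and 0 passed. RPL32 stood at 1279 and 555 CPM on RUVBL1 GFP beads over 1946 and 2366 CPM, an enrichment of -1.23 ± 0.28 (adjusted p = 0.00694). Nuclear-encoded respiratory chain subunits had 27 of 79 lower (median -0.67), COX7A2 at -1.03 ± 0.21, and replication-dependent histones had 11 of 48 lower (median -0.68), H4C3 at -1.32 ± 0.24, each with 0 called in the difference and 0 with RPAP3. Of 13 other structured or nuclear RNAs 5 were lower on RUVBL1 GFP beads and 1, RPPH1, in the difference. RMRP, the RNA of the RNase MRP, stood at 4338 and 6868 CPM over 15726 and 12507 CPM, an enrichment of -1.33 ± 0.28 (adjusted p = 0.00406). Its difference was -1.43 ± 0.39 (adjusted p = 0.134), and it was called in 4 of 16 alternatives, among them without GFP replicate 1 (-1.14, adjusted p = 0.0381) and without GFP replicate 2 of CB-6644 cells (-1.83, adjusted p = 0.00859). RPL32 was not called without GFP replicate 2 (adjusted p = 0.105) or uncoupled replicate 2 (0.114), COX7A2 without uncoupled replicate 2 (0.0665) and RMRP without uncoupled replicate 1 (0.0718). The counts of these groups were not redone with single libraries left out. Over all genes tested, higher and lower calls both fell without GFP replicate 2 or either uncoupled library of CB-6644 cells. Both rose without GFP replicate 1. Very long cytosolic proteins had 6 of 30 higher with inhibited RUVBL1, TFIIIC and TFIIIB 3 of 10, and the chaperones of the HSP90 and HSP70 system 0 of 21, and in all 3 lists 0 passed in the difference. The snoRNP core and assembly factors had 1 of 13 higher and 1 lower with inhibited RUVBL1, and the U5 and U4/U6 snRNP proteins 1 of 18 higher, which was PRPF8. The eIF3 subunits had 1 of 12 higher and 2 lower, the CCT chaperonin and prefoldin 2 of 13 lower, p53 targets 1 of 24 higher and 1 lower and mitotic genes 2 of 20 higher. Over all genes 5.89% were higher and 3.29% lower, so counts of 1 or 2 in lists of this size say nothing about them. Proteasome subunits (31), ATF4 and its targets (20), immediate early genes (13) and ER chaperones (14) had 0 called in either enrichment. Apart from RPPH1, all these lists had 0 called in the difference.

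The mRNAs of the tagged proteins were measured too. That of RPAP3 was enriched with both baits, at 286 and 299.7 CPM on RPAP3 GFP beads over 32.8 and 29.4 CPM and 332 and 139.6 CPM on RUVBL1 GFP beads over 41.8 and 38.5 CPM. The RPAP3 enrichment was 3.24 ± 0.40 and that with inhibited RUVBL1 2.56 ± 0.39 (adjusted p = 0.00122), and the difference of -0.68 ± 0.52 did not pass (adjusted p = 0.657). The RUVBL1 mRNA was at 86.3 and 60.6 CPM over 63.4 and 63.7 CPM on the RUVBL1 beads and was not enriched beyond its error with either bait (0.21 ± 0.32 and -0.18 ± 0.31). RUVBL2, the partner in the ring, differed by -0.13 ± 0.31.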

How the data were processed

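RNA recovered on GFP-Trap and on uncoupled agarose beads from HCT116 lines was sequenced from SMART-seq Stranded libraries, per the labels' protocols. The deposited values were raw read counts per gene for 28307 genes in 24 libraries. The submitters' processing notes name featureCounts 2.0.3, TopHat2 2.1.1, MultiQC 1.12, FastQC 0.11.9, bcl2fastq 2.20.0.422 and the build hg38; the strand setting and the treatment of overlapping genes and of reads that map to several places are not given in the sources used here.

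Genes were kept by edgeR 4.0.16 (filterByExpr, minimum count 10), leaving 16695, and scaled by TMM; levels are counts scaled to library size (CPM). One group-mean model of all 24 libraries (12 groups of 2) was fitted in R 4.3.3 with edgeR's robust quasi-likelihood test, which was checked on simulated data. P-values are two-sided and adjusted by Benjamini-Hochberg over all genes tested, with calls at an adjusted p under 0.05, and log2 values are given ± the standard error of the fit. Of 27790 gene IDs 27757 were found in the RefSeq gene table of GRCh38.p14, which gave gene types and spans. Host genes are those whose span holds the small RNA on either strand. Alternatives were DESeq2 1.42.0, limma 3.58.1 voom, other scalings, no filter, the 8 libraries alone, a replicate block and each library left out.

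The named genes are the 12 called genes of largest difference in each direction and the 12 of largest RPAP3 enrichment at a mean of at least 5 CPM over the 8 libraries, the 12 highest in both enrichments, the 3 smallest p-values of each gene list, and RUVBL1, RUVBL2 and RPAP3. ABL1, ADGRL1, CEP170B, SNHG1 and the other genes said to be named after their values were seen fall outside this rule, as do further members of the lists. The comparison, the rule and the lists were chosen with earlier results of these data known. Some items are not reported here.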

Additional observations from a re-analysis of the deposited data

Results flagged for a closer look

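The enrichment under the same contrast, GFP over uncoupled beads, differed between CB-6644 RUVBL1 and untreated RPAP3 by the test of the difference itself for 58 genes, of which those named here are given with their log2 difference. Lower with inhibited RUVBL1 were POLR1A (-4.56), POLR2A (-3.76), POLR3A (-3.23), GOLGA4 (-2.65), POLR2B (-2.30), SERPINA1 (-2.20), RPPH1 (-1.91) and URI1 (-1.70). The box C/D snoRNAs SNORD79 (8.63), SNORD26 (7.05), SNORD29 (6.82), SNORD68 (6.61), SNORD27 (6.48), SNORD22 (6.46), SNORD58A (6.31), SNORD17 (6.10), SNORD55 (6.02), SNORD15B (5.86) and SNORD104 (5.51) and the scaRNAs SCARNA5 (6.67) and SCARNA2 (4.32) were higher. So were the transcripts WASHC2A (3.02), WASHC2C (2.65), COL13A1 (2.20), KIF26A (2.10), NES (1.91), RPRD2 (1.81), SNHG1 (1.71), ADGRB2 (1.58), PCNX3 (1.58), FAM83H (1.58), CHERP (1.54), CEP170B (1.34), ADGRL1 (1.23) and ABL1 (1.11). With 2 libraries in each group, no single library was tested as an outlier within its group.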

How the results depend on the processing

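Counts of calls moved more than the directions did. Of 110 single-gene values under 16 alternatives, 1472 kept direction and call, 244 lost the call, 36 gained one and 8 changed sign. The sign changes were those of small uncalled values: the difference of RUVBL2 (0.12 with total-count scaling, -0.53 to 0.15 with 1 library left out), that of TEP1 (0.024 and -0.91 to 0.16), and the inhibited RUVBL1 enrichments of URI1 (0.14 and -0.38 to 0.19) and RUVBL1 (-0.068 to 0.42 with 1 library left out). The difference had 50 higher and 8 lower calls; DESeq2 gave 107 and 33, no filter on low counts 220 and 41, and the 8 libraries alone 26 and 4. The CB-6644 RUVBL1 enrichment had 983 higher and 550 lower; total-count scaling gave 1824 and 325, voom 273 and 95, the 8 libraries alone 151 and 21, and lower calls were 846 with upper-quartile scaling and 967 with DESeq2. The RPAP3 enrichment had 56 higher and 1 lower; no filter gave 100 and 2, DESeq2 97 higher, voom 133 higher and the 8 libraries alone 0 lower. Genes higher in both, 41, were 79 with no filter, 70 with DESeq2 and 21 in the 8 libraries alone. snoRNAs and scaRNAs called, 36, were 65 with no filter and 61 with DESeq2, and RPAP3 mRNAs lower in the difference, 6, were 15 and 13; these 3 counts were added after seeing the data. Total-count scaling moved the median difference of all genes from 0.07 to 0.33. Leaving out 1 library at a time gave 21 to 1015 higher and 5 to 1059 lower in the difference, 92 to 2104 and 10 to 2220 with inhibited RUVBL1, 23 to 76 and 0 to 2 with RPAP3, 14 to 39 in both, 17 to 94 snoRNAs and scaRNAs and 4 to 20 RPAP3 mRNAs lower; the lone library of a group was assumed to vary like the others.

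With the replicate block, which pairs GFP and uncoupled libraries of the same number, the difference had 48 higher and 14 lower, 64 genes were higher in both and 12 RPAP3 mRNAs were lower. Same-numbered libraries did not deviate together across genes (correlations of -0.134 to 0.0968). With so few pairs, this cannot show whether they came from the same lysate. The lowest depth was 9019665 counts, in GFP replicate 2 of CB-6644 cells; how far depth sets the calls was not tested. The cause of the changes between settings was not tested.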
